A study of Homo sapiens with 52 samples.

Results

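The mitochondrially encoded genes were the 37 rows of the gene-level tables whose name starts with MT-, out of 78894 genes listed. They were 13 protein genes, 2 ribosomal RNA (rRNA) genes and 22 transfer RNA (tRNA) genes, chosen by name and not by any measured value. They were followed through 52 RNA sequencing libraries from 3 established breast cancer cell lines in which neuropilin-1 (NRP1), a co-receptor for vascular endothelial growth factor and semaphorins, had been knocked down.

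SUM159PT gave 17 libraries, MDA-MB-231 18 and HS578T 17, and each line had 6 groups. Cells were transfected with a non-targeting siRNA (siNT) or with siNRP1#3 or siNRP1#5 at 20 nM and harvested after 72 hrs, or they stably carried a lentiviral non-targeting shRNA (shNT), shNRP1#3 or shNRP1#5, were selected with puromycin and were harvested 48 hrs after seeding. Groups held 3 libraries, except SUM159PT siNRP1#5 and HS578T shNRP1#3 with 2 each. siNRP1#5 and shNRP1#5 target the same sequence, while siNRP1#3 and shNRP1#3 do not. The paper states that the #3 sequences were aimed at the transmembrane form of NRP1 alone, and the #5 sequences at its soluble form too. The replicates of an shRNA group were consecutive passages after transduction. Those of an siRNA group are called independent biological replicates, and no source used here says whether they came from separate cultures, so the p-values measure only the spread between these samples. siRNA and shRNA groups differed in how the sequence was delivered, in puromycin selection and in harvest time, and these cannot be told apart. RNA was enriched for poly(A) before sequencing.

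The mitochondrial genome is a small circle present in many copies per cell. Both of its strands are transcribed into long precursors, and most mRNAs and both rRNAs are released when the tRNAs that lie between them are cut out. The mRNAs then receive short poly(A) tails, which in several genes also complete the stop codon, whereas the rRNAs carry only very short A tails and MT-ND6, the mRNA encoded on the other strand, is known to lack a stable one. The proteins are core subunits of respiratory chain complexes I (ND genes), III (CYB) and IV (CO genes) and of the ATP synthase (ATP genes), and the rRNAs form the mitochondrial ribosome. In a poly(A)-enriched library the amount of such an RNA and its capture cannot be told apart, nor, in bulk RNA, can fewer cells of a type and less RNA per cell.

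The sequences that bear on capture are shown first, since oligo-dT beads hold an RNA by its runs of A bases. They come from the GRCh38 mitochondrial genome of 16569 bases and were read 5′ to 3′ along each gene. Such runs are not particular to the rRNAs. In the protein genes the longest went from 3 bases (MT-ND4L and MT-ND6) to 8 (MT-ND5), with 7 in MT-ND2, MT-CO1 and MT-ND4. The longest A runs of the rRNAs, in capitals, were 7 bases in MT-RNR2 (16S rRNA, chrM:1671-3229, plus strand) at its bases 787 to 793, and 6 bases in MT-RNR1 (12S rRNA, chrM:648-1601, plus strand) at its bases 346 to 351.
MT-RNR2: aaggaaaggttAAAAAAAgtaaaaggaact
MT-RNR1: cacctgagttgtAAAAAActccagttgaca

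The last 30 bases of MT-ND1 (chrM:3307-4262), MT-ND2 (chrM:4470-5511) and MT-CO3 (chrM:9207-9990) show the ends to which a tail is added. The bases beyond the last whole codon are in capitals. Of the 13 protein genes, 6 end without a whole last codon. MT-ND6 (chrM:14149-14673) lies on the minus strand and ends with a whole codon, whose bases are in capitals. Its last 30 bases are the end of the annotated gene and are not shown as a tail site.
MT-ND1: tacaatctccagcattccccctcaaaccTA
MT-ND2: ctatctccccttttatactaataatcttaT
MT-CO3: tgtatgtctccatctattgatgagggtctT
MT-ND6: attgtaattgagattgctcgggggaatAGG

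Neighbouring genes also share bases. The stretches given here are shorter than the 75 bases of the shortest read kept, so no kept read could lie wholly within either. MT-ATP8 and MT-ATP6 share 46 bases (chrM:8527-8572), and MT-ND4L and MT-ND4 share 7 bases (chrM:10760-10766), in capitals here.
MT-ND4L and MT-ND4: aacctactccaATGCTAAaactaatcgtcc

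The libraries held 25310443 to 72003442 estimated counts, with a median of 44804505. NRP1 was lower than in its NT control in all 12 knockdown comparisons, by log2 fold changes of -0.70 to -4.88, of which 11 passed the test (HS578T shNRP1#3, -1.59, edgeR adjusted p = 0.0690). Of the claudin-low markers, the epithelial CDH1 had a median of at most 0.405 TPM (a level corrected for gene length) and the mesenchymal VIM of at least 2496 TPM in each line, but the claudins were not low in MDA-MB-231, where CLDN4 had a median of 149 TPM, CLDN7 of 35.4 and CLDN3 of 6.86. Of the receptors that triple-negative cells lack, ESR1 and PGR stood at no more than 0.36 and 0.21 TPM in any library and ERBB2 at 8.46 to 48.6 TPM. Marker genes of other lines of the study stood high in some libraries. This is called RNA of other lines below, although a rise of these genes in the treated cells themselves was not tested. In HS578T, 83 genes that are marks of MDA-MB-231 stood at 17.1, 14.3 and 8.65% of their level in that line in siNRP1#5 replicates 1 to 3, at 2.11 to 5.32% in siNRP1#3, and at 0.1003 to 1.41% in the NT controls, and marks of SUM159PT stood at 8.15% in siNRP1#5 replicate 2. In MDA-MB-231 shNRP1#3 replicate 3, marks of SUM159PT stood at 2.77% and those of HS578T at 3.21%. Results that rest on these libraries are also given with that share subtracted or without the library.

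All 22 tRNA genes had 0 counts and 0 TPM in all 52 libraries, which allows at most 0.0417 to 0.119 CPM (counts scaled to library size) per library for each gene, by counting error alone. The tRNA genes are 59 to 75 bases long, and only reads of 75 bases or more were kept by the authors. A kept read could therefore lie within a tRNA gene only if that gene had the full 75 bases. The counts of 0 and their limit thus say nothing on how much tRNA the cells held. The other 15 members passed the filter on low counts in every fit, and every count below is over these 15.

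The mitochondrial genes took 1.80 to 7.26% of the counts of a library, with a median of 3.51%. The protein genes alone took 0.767 to 4.09%, and the rRNAs 0.227 to 4.23%. The rRNAs made up 9.29 to 76.5% of the mitochondrial counts. Among the protein genes, MT-CO1 took the largest median part of the protein gene counts (22.6%), followed by MT-CO3 (18.6%), MT-CO2 (15.5%) and MT-ND4 (10.5%).

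The rRNA share separated the siRNA from the shRNA libraries in SUM159PT and HS578T. In SUM159PT it was 1.35 to 3.45% of counts in the 8 siRNA libraries and 0.280 to 0.712% in the 9 shRNA libraries. In HS578T it was 1.03 to 4.23% in 9 siRNA libraries and 0.227 to 0.547% in 8 shRNA libraries. These ranges did not overlap, whereas in MDA-MB-231 the siRNA libraries, at 0.297 to 0.786%, lay over the shRNA libraries, at 0.256 to 0.595%. The share of the protein genes overlapped between siRNA and shRNA libraries in each of the 3 lines.

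**Figure D1:**
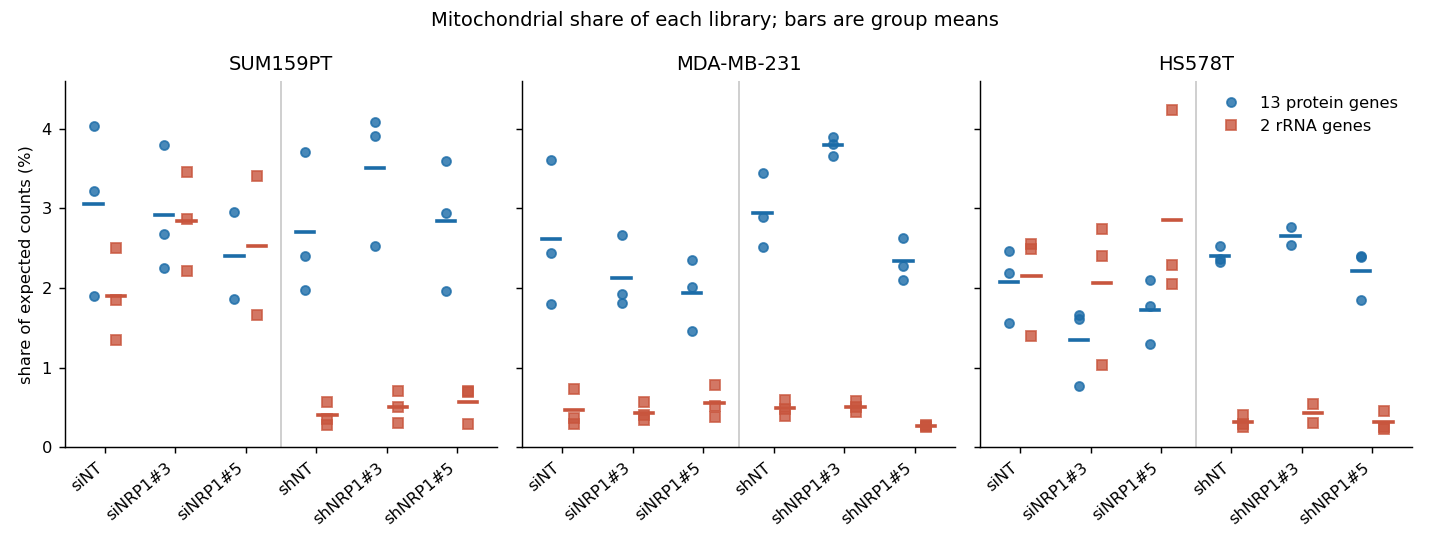
Share of each library's estimated counts, in percent, taken by the 13 mitochondrial protein genes (blue circles) and the 2 rRNA genes (red squares), with a panel for each of the 3 cell lines, 1 point per library and a bar at each group mean. The rRNA points of the siRNA groups in SUM159PT and HS578T lie at 1.03% and above and those of their shRNA groups at 0.712% and below, and the protein gene points overlap.

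In the controls alone, the siNT and shNT libraries of SUM159PT and HS578T differed in the same way. The rRNA share of SUM159PT was 2.51, 1.35 and 1.85% in siNT (1.90% ± 0.581, SD, n = 3) and 0.355, 0.568 and 0.280% in shNT (0.401% ± 0.150, n = 3), a ratio of 0.211. In HS578T it was 2.49, 2.56 and 1.40% in siNT (2.15% ± 0.650, n = 3) and 0.401, 0.254 and 0.292% in shNT (0.316% ± 0.0761, n = 3), a ratio of 0.147. In MDA-MB-231 the values 0.297, 0.363 and 0.738% in siNT and 0.595, 0.477 and 0.393% in shNT overlapped, with a ratio of the means of 1.05.

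The protein gene share overlapped between siNT and shNT in every line: 3.05% ± 1.08 against 2.698% ± 0.899 in SUM159PT, 2.62% ± 0.915 against 2.95% ± 0.466 in MDA-MB-231, and 2.07% ± 0.467 against 2.41% ± 0.109 in HS578T (SD, n = 3 each). The whole mitochondrial share was lower in shNT than in siNT, without overlap, in SUM159PT (3.10% ± 1.05 against 4.95% ± 0.499) and HS578T (2.72% ± 0.185 against 4.22% ± 0.461). The rRNA part of the mitochondrial counts averaged 39.5% in siNT and 12.8% in shNT of SUM159PT, 50.5% and 11.5% in HS578T, and 14.7% and 14.1% in MDA-MB-231. As shares are sums over the members, they are given without a test.

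Gene by gene, the larger rRNA carried most of the difference. MT-RNR2 stood at 19859, 9615 and 14577 TPM in SUM159PT siNT and at 2713, 4325 and 2265 TPM in shNT. In HS578T it stood at 18253, 17556 and 9766 TPM in siNT and at 2360, 1441 and 1767 TPM in shNT. The groups were far apart in both lines. In MDA-MB-231 it stood at 2463, 2899 and 6023 TPM in siNT and at 5406, 4228 and 3531 TPM in shNT, so siNT replicate 3 lay above all the shNT libraries and the other two below them. MT-RNR2 was lower in shNT than siNT by a log2 fold change of -2.41 (SE 0.415, edgeR adjusted p = 0.00380) in SUM159PT and of -3.04 (SE 0.467, edgeR adjusted p = 0.000939) in HS578T, and differed by 0.02 (SE 0.320, edgeR adjusted p = 0.968) in MDA-MB-231. No single library carried these calls: leaving out each in turn gave -2.71 to -2.17 in SUM159PT and -3.26 to -2.87 in HS578T, each past the threshold.

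MT-RNR1, the smaller rRNA, followed with a smaller difference. It stood at 2014, 1344 and 1683 TPM in SUM159PT siNT and 623, 1009 and 479 TPM in shNT, and at 2763, 2646 and 2347 TPM in HS578T siNT and 1116, 857 and 905 TPM in shNT, without overlap in either line. MT-RNR1 had a log2 fold change of -1.44 in SUM159PT (SE 0.320, edgeR adjusted p = 0.0110), of -1.44 in HS578T (SE 0.370, edgeR adjusted p = 0.0144) and of -0.23 in MDA-MB-231 (SE 0.203, edgeR adjusted p = 0.445). The MT-RNR1 call in SUM159PT was lost without shNT replicate 3, and that in HS578T without siNT replicate 2, shNT replicate 2 or shNT replicate 3.

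The rRNAs are cut from 1 precursor, yet their ratio also differed. The TPM of MT-RNR2 was 6.70 to 14.4 times that of MT-RNR1 in the SUM159PT siRNA libraries and 4.09 to 5.01 times in the shRNA libraries. In HS578T the ratio was 4.16 to 8.00 and 1.45 to 2.23. In MDA-MB-231 the ranges, 2.89 to 5.14 and 3.91 to 5.90, overlapped. RN7SK, RN7SL1 and RN7SL2 are nuclear-encoded RNAs without a poly(A) tail. RN7SL2 was lower in shNT without overlap in the same lines as the rRNAs, at 32.4, 70.4 and 52.5 CPM in SUM159PT siNT against 3.61, 21.9 and 5.11 in shNT, and at 25.7, 24.6 and 43.3 CPM in HS578T siNT against 12.8, 6.50 and 9.91 in shNT. In MDA-MB-231 the RN7SL2 values, 2.89 to 3.998 and 2.29 to 3.33 CPM, overlapped. RN7SK was 3.28 to 7.05 CPM in SUM159PT siNT and 1.24 to 6.78 in shNT, and 4.24 to 7.96 CPM in HS578T siNT and 2.51 to 7.09 in shNT, overlapping in both. RN7SL1, a near copy of RN7SL2 that can share its reads, overlapped too, at 19.7 to 32.2 against 8.48 to 25.2 CPM in SUM159PT and 12.5 to 15.6 against 12.1 to 16.6 CPM in HS578T. RMRP, RPPH1 and the summed replication-dependent histone genes also lack a poly(A) tail and overlapped in both lines. In SUM159PT siNT and shNT, RMRP was 1.38 to 1.86 and 0.554 to 3.43 CPM, and histones 122 to 174 and 89.6 to 140 CPM. In HS578T RMRP was 1.10 to 1.50 and 0.789 to 1.89 CPM, and histones 119 to 132 and 129 to 143 CPM. Of these RNAs RN7SL2 alone was lower without overlap in both lines. The part of capture and of RNA quality in the rRNA difference was not tested.

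**Figure D2:**
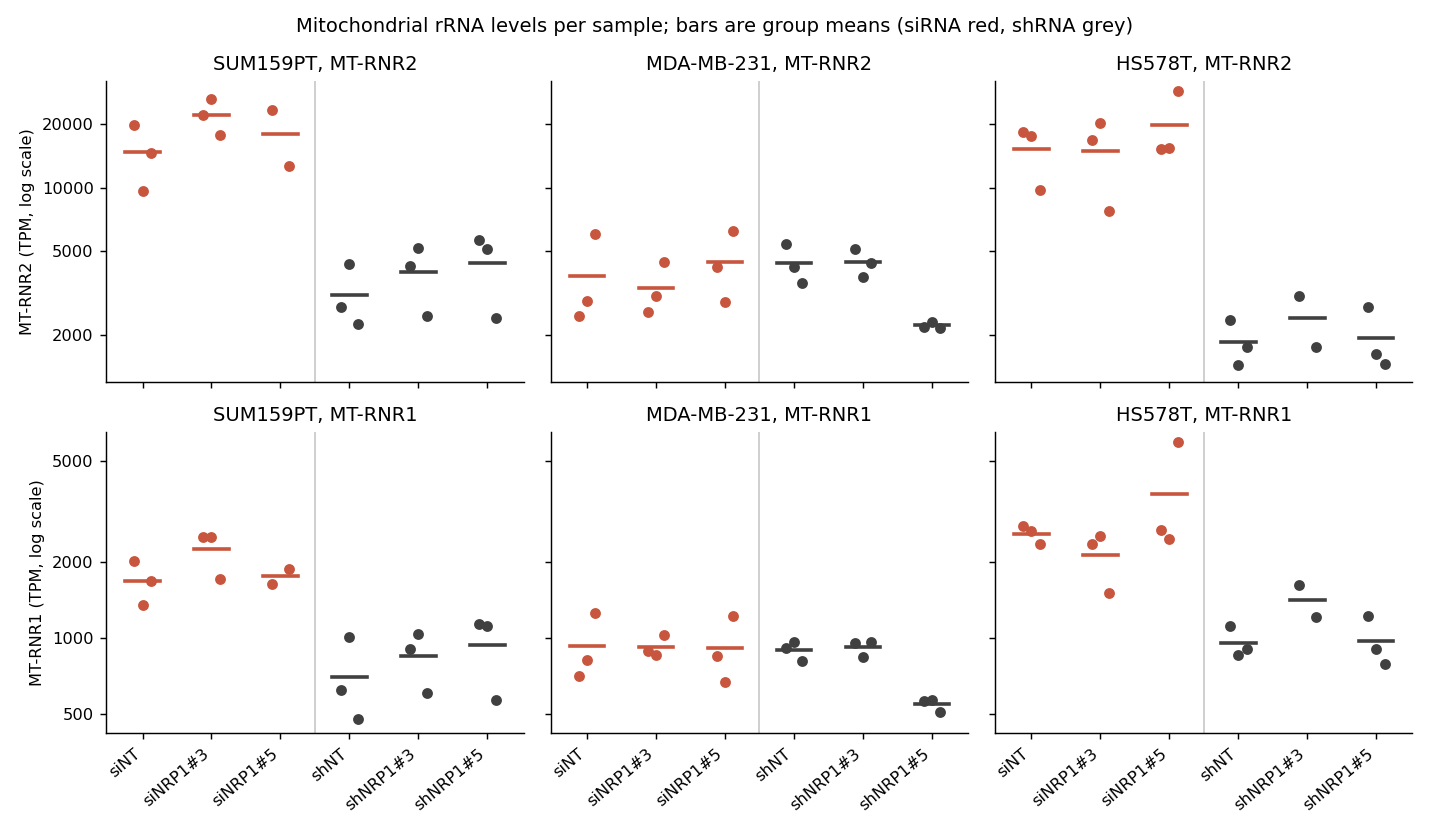
TPM, on a log axis, of MT-RNR2 and MT-RNR1 in every library, grouped by treatment in each of the 3 cell lines, with a bar at each group mean. In SUM159PT and HS578T the siRNA groups of MT-RNR2 lie at 7719 TPM or more and the shRNA groups at 5670 TPM or less, and in MDA-MB-231 they overlap.

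Whether the shNT against siNT difference was the same in the 3 lines was tested over all 52 libraries. Of the 15 members MT-RNR2 alone differed between lines (edgeR F = 14.6, adjusted p = 0.00124), where 13.9% of all genes did so. MT-RNR1 had an adjusted p of 0.0735 and MT-CO3 of 0.0815 in the same edgeR test, and 3 of the 15 had an unadjusted p under 0.05. The MT-RNR2 call was lost when replicate 1 (edgeR adjusted p = 0.104) or replicate 2 (0.0628) was left out of every group, and held without replicate 3 (0.000299).

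Across all 15 members, shNT against siNT called 2 lower and 0 higher in SUM159PT, where 14.4% of all genes were called in either direction and 8.45% lower, 0 in MDA-MB-231, where 20.6% were called and 0 of the 15 had an unadjusted p under 0.05 by edgeR, and 2 lower and 4 higher in HS578T, where 17.9% were called, 8.8% lower and 9.14% higher. DESeq2 also called 0 in MDA-MB-231. The median log2 fold change of the 15 was -0.14, 0.03 and 0.09, beside -0.03, -0.01 and 0.00 over all genes tested. The SUM159PT calls were the rRNAs alone, and those of HS578T were the rRNAs and MT-ND6, MT-CO3, MT-ND1 and MT-ND2.

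In HS578T these mRNAs were higher in shNT than in siNT, and their values did not overlap. MT-CO3, a core subunit of complex IV, stood at 3174, 4287 and 3851 TPM in siNT and at 7404, 7112 and 8691 TPM in shNT (log2 fold change 1.01, SE 0.287, edgeR adjusted p = 0.0230). MT-ND1, a membrane subunit of complex I, stood at 485, 628 and 776 TPM in siNT and at 1116, 1272 and 1185 TPM in shNT (0.89, SE 0.244, edgeR adjusted p = 0.0193). MT-ND2, another membrane subunit of complex I, stood at 719, 1149 and 1694 TPM in siNT and at 1843, 2624 and 2227 TPM in shNT (0.87, SE 0.280, edgeR adjusted p = 0.0401). All 3 end without a whole stop codon, as printed above, as do 3 other mRNAs that were not called. Whether such ends bear on the calls was not tested. MT-ND6, the mRNA of the other strand, stood at 4.68, 4.08 and 7.23 TPM in siNT and at 8.30, 19.6 and 21.9 TPM in shNT (1.62, SE 0.518, edgeR adjusted p = 0.0396). MT-ND5, also of complex I, stood at 480, 526 and 506 TPM in siNT and at 387, 336 and 365 TPM in shNT, lower without overlap but not past the test (-0.50, edgeR adjusted p = 0.176).

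Of the 15 members, 4 lay higher and 3 lower without overlap in HS578T, beside 17 and 19.2% of all genes. The ratio of MT-CO3 to MT-CO1, both of complex IV, was 0.871 to 1.25 in TPM in HS578T siNT and 1.91 to 2.97 in shNT. The 4 mRNA calls were less firm than those of MT-RNR2. Each was lost in 3 or 4 of the 6 fits that left out 1 siNT or shNT library: MT-CO3 without siNT 1, shNT 2 or shNT 3, MT-ND1 without siNT 1, siNT 2 or shNT 2, and MT-ND2 and MT-ND6 each without siNT 1, siNT 2, shNT 2 or shNT 3. With the share of RNA from other lines subtracted, MT-CO3 (edgeR adjusted p = 0.107), MT-ND2 (0.0702) and MT-ND6 (0.0807) no longer passed.

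The level of each gene in the NT controls (siNT and shNT together, n = 6 per line) gave a common order with line-specific exceptions. MT-CO3 and MT-CO2, subunits of complex IV, led in MDA-MB-231 (11313 ± 2663 and 10348 ± 2681 TPM, SD) and in SUM159PT (11958 ± 3567 and 10419 ± 3355 TPM). In HS578T MT-ND3, a small subunit of complex I, had the highest mean, at 10494 ± 1252 TPM, followed by MT-RNR2 (8524 ± 7894), MT-CO2 (7603 ± 1701) and MT-CO3 (5753 ± 2264). This order depended on the control. In siNT alone MT-RNR2 had the highest mean in SUM159PT (14684 ± 5123 TPM, n = 3) and HS578T (15192 ± 4712), above MT-ND3 of HS578T (10175 ± 1756), and in shNT alone it stood at 3101 ± 1083 and 1856 ± 466 TPM. MT-CO3 and MT-CO2 did not differ beyond their SD in MDA-MB-231 and SUM159PT. MT-ND3 stood at 9336 ± 1697 TPM in MDA-MB-231 and 4457 ± 538 TPM in SUM159PT. TPM divides counts by an estimated length, so the rank of a short gene such as MT-ND3 rests on that estimate. By counts, MT-ND3 took a median of 4.93% of the protein gene counts over all libraries, against 22.6% for MT-CO1.

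MT-ND6 was lowest in each line, at 10.96 ± 7.76 TPM in HS578T, 33.9 ± 23.7 in SUM159PT and 63.3 ± 23.1 in MDA-MB-231, and MT-ND5 was next lowest, at 433 ± 80.4, 409 ± 95.4 and 608 ± 168 TPM. Over all libraries MT-ND6 ranged from 4.08 to 215 TPM, and its 43 to 3559 counts were the fewest of the 15. The SD of MT-RNR2 was near its mean in SUM159PT (8892 ± 7156 TPM) and HS578T, where siNT and shNT differ.

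**Figure D3:**
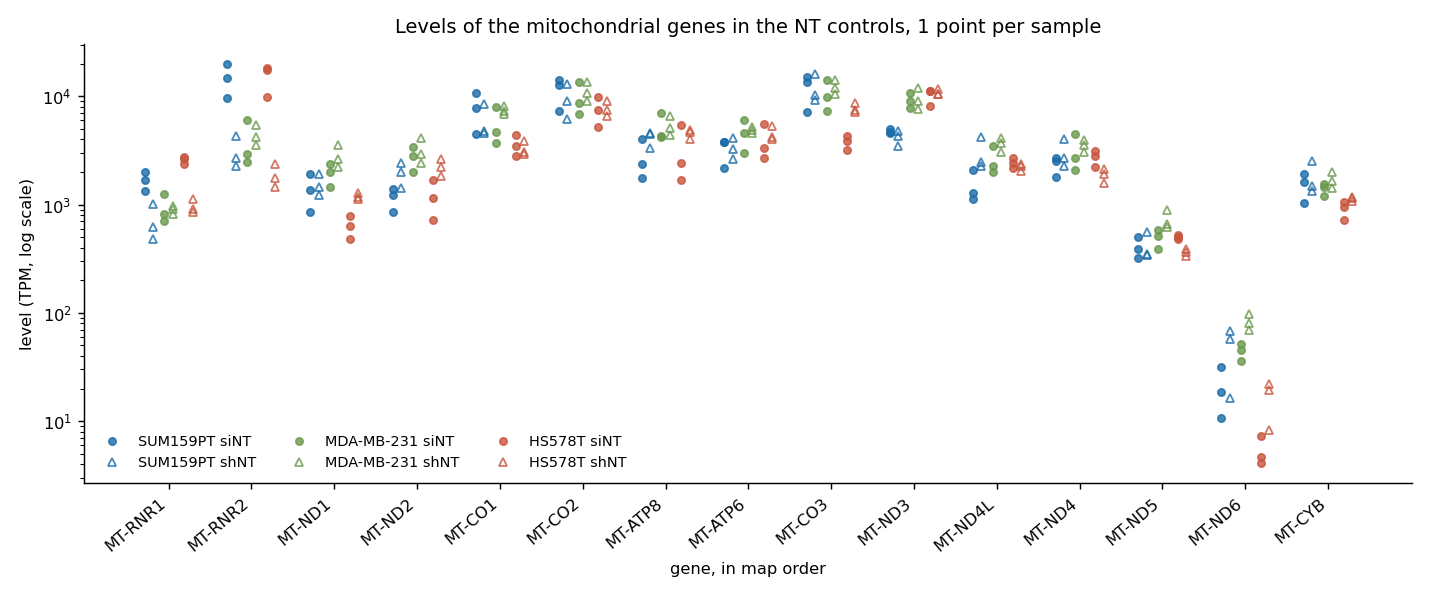
TPM, on a log axis, of the 15 measured mitochondrial genes in the NT controls of the 3 cell lines, with 1 point per library (siNT and shNT marked apart). MT-ND6 is lowest in every line, between 4.08 and 97.2 TPM, and MT-ND3 of HS578T lies above that of SUM159PT in every library.

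Between lines, the mean of siNT and shNT was compared. Of the 15 members, 5 were called between SUM159PT and MDA-MB-231 (61.7% of all genes were), 6 between HS578T and MDA-MB-231 (73.2%) and 8 between HS578T and SUM159PT (66.4%). In each case the share of members called was below that of all genes. Scaling by library size alone moved the median of all genes in these comparisons by -0.16, -0.42 and -0.23 on the log2 scale, and with it 5 of the 19 calls were lost and none turned.

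MT-ND3 differed between every pair of lines. Its log2 fold change was 1.64 for HS578T against SUM159PT (SE 0.151, edgeR adjusted p = 3.26e-08), 0.97 for HS578T against MDA-MB-231 (SE 0.148, edgeR adjusted p = 1.22e-05) and -0.67 for SUM159PT against MDA-MB-231 (SE 0.148, edgeR adjusted p = 0.000675). MT-ND6 was lower in HS578T than in both others, by -1.89 against MDA-MB-231 (SE 0.344, edgeR adjusted p = 7.86e-05) and -1.35 against SUM159PT (SE 0.340, edgeR adjusted p = 0.00198). MT-ATP6, the membrane subunit of the ATP synthase that conducts protons, was higher in HS578T by 0.62 and 0.74 (edgeR adjusted p = 0.0180 and 0.00727), but neither passed when libraries were scaled by size alone (0.521 and 0.0567).

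MT-CYB, the complex III subunit, was higher in SUM159PT than in MDA-MB-231 (0.50, edgeR adjusted p = 0.0257) and MT-ND2 lower (-0.58, 0.0357), and MT-ND1 was lower in HS578T than in MDA-MB-231 (-0.64, 0.0128). The MT-CYB call was lost in 5 of the 12 fits that left out 1 library (0.34 to 0.59) and that of MT-ND2 in 7 (-0.70 to -0.46). MT-CYB was lost without siNT 2 or 3 or shNT 2 of SUM159PT or siNT 1 or shNT 3 of MDA-MB-231, and MT-ND2 without siNT 1 or 3 or shNT 1 or 3 of SUM159PT or siNT 2 or 3 or shNT 1 of MDA-MB-231. From shNT alone neither passed (0.46 and -0.32). Against SUM159PT, HS578T was higher for MT-ND5 (0.47, edgeR adjusted p = 0.0141) and MT-ND4L (0.55, 0.0119), both of complex I, and lower for MT-CO3 (-0.76, 0.00415) and MT-CO1 (-0.58, 0.0422) of complex IV. MT-CO1 is the catalytic subunit of that complex, and its call was lost with the replicate number as a block (-0.53, edgeR adjusted p = 0.0564), from either control alone, and in 7 of the 12 fits that left out 1 library (-0.69 to -0.37), namely without siNT 2 or 3 or shNT 2 of SUM159PT or siNT 1 or 2 or shNT 2 or 3 of HS578T.

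The rRNA differences between lines turned on the control used. MT-RNR1 was higher in HS578T than in MDA-MB-231 (1.57, edgeR adjusted p = 2.82e-07) and SUM159PT (0.94, edgeR adjusted p = 0.000132), in both siNT and shNT alone. MT-RNR2 was higher in SUM159PT (1.10, edgeR adjusted p = 0.000745) and HS578T (1.16, edgeR adjusted p = 0.000352) than in MDA-MB-231. From siNT alone these values were 2.32 and 2.71 (edgeR adjusted p = 3.25e-05 and 4.78e-06), and from shNT alone they turned to -0.11 and -0.39 (edgeR adjusted p = 0.817 and 0.330). MT-RNR1 of SUM159PT against MDA-MB-231 was 0.64 over both controls (edgeR adjusted p = 0.00390), 1.24 from siNT and 0.04 from shNT.

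Each NRP1 sequence was then compared with the NT control of its own modality, to ask whether loss of NRP1 moved the mitochondrial RNAs. The comparisons of 1 modality in a line share their NT libraries and are not independent. Over the 12 comparisons, 5 calls were made among the 15 members, all of them in MDA-MB-231 and all lower by edgeR. In HS578T edgeR called 0, DESeq2 called 2 with siNRP1#3, and edgeR with the replicate number as a block called 1 with each siRNA.

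In MDA-MB-231 MT-ATP8, a small subunit of the ATP synthase whose gene overlaps that of MT-ATP6, was lower with both siRNAs. It stood at 4300, 4196 and 6950 TPM in siNT, at 2879, 2569 and 3149 TPM in siNRP1#3 and at 3786, 2299 and 2721 TPM in siNRP1#5, each without overlap. The log2 fold change was -0.71 with siNRP1#3 (SE 0.206, edgeR adjusted p = 0.0170) and -0.58 with siNRP1#5 (SE 0.206, edgeR adjusted p = 0.0420). It was the 1 member called with siNRP1#3, where 25.7% of all genes were called and 14.3% were called lower.

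With siNRP1#5, 3 of 15 members were called, all lower, where 29.4% of all genes were called and 14.9% were called lower. MT-CYB stood at 1198, 1441 and 1544 TPM in siNT and 1151, 698 and 506 TPM in siNRP1#5 (-0.64, SE 0.207, edgeR adjusted p = 0.0259). MT-ND5, a large proton-pumping subunit of complex I, stood at 385, 511 and 581 TPM in siNT and 388, 180 and 255 TPM in siNRP1#5 (-0.66, SE 0.229, edgeR adjusted p = 0.0370). In both genes the first siNRP1#5 library lay near or within the siNT values and the other two below them. MT-ATP8 was lost without siNT replicate 3 in either comparison, without siNRP1#3 replicate 1 or 2, and without siNRP1#5 replicate 2 or 3. MT-CYB and MT-ND5 were lost without siNT replicate 2 or 3 or siNRP1#5 replicate 2 or 3, and all 3 siNRP1#5 calls were lost when siNT and siNRP1#5 alone were fitted (edgeR adjusted p = 0.102 to 0.113).

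With shNRP1#5 in MDA-MB-231, the rRNAs were low. MT-RNR1 stood at 916, 962 and 812 TPM in shNT and at 561, 568 and 511 TPM in shNRP1#5 (-0.65, SE 0.203, edgeR adjusted p = 0.0299), the 1 member called where 20.7% of all genes were called and 11.9% were called lower. MT-RNR2 stood at 2196, 2321 and 2152 TPM in shNRP1#5, below all 3 shNT libraries, at -0.92 (SE 0.323, edgeR adjusted p = 0.0545). The rRNA share was 0.270, 0.276 and 0.256% in shNRP1#5 (0.267% ± 0.0105, SD, n = 3), against 0.488% ± 0.101 in shNT, a ratio of 0.548. MT-CO1, MT-CO2 and MT-ND5 also lay below shNT without overlap, which makes 5 of 15 members beside 23.8% of all genes, and none of these mRNAs passed the test. The MT-RNR1 call was lost without shNT replicate 1 or 2 or any 1 of the shNRP1#5 replicates.

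shNRP1#3 in MDA-MB-231 lay on the other side of the control. The mitochondrial share was 4.30% ± 0.119 against 3.44% ± 0.567 in shNT and the protein gene share 3.79% against 2.95%, higher without overlap, and the median log2 fold change of the members was 0.36, beside 0.02 over all genes. By the edgeR test 0 members were called (3.65% of all genes were), 5 had an unadjusted p under 0.05, and DESeq2 called 1. MT-CYB was nearest, at 1992, 1658 and 1425 TPM in shNT and 3292, 2317 and 2500 TPM in shNRP1#3 (0.67, SE 0.207, edgeR adjusted p = 0.0884). The mitochondrial share with shNRP1#5, 2.60% ± 0.273, was lower than shNT without overlap, so the shRNAs stood on either side of their shared control. Without shNRP1#3 replicate 3, which held RNA of other lines, the log2 ratio of the mitochondrial shares was 0.35, beside 0.32 with it.

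In SUM159PT 0 of 15 members were called by edgeR with siNRP1#3 (8.66% of all genes were), siNRP1#5 (17.9%), shNRP1#3 (1.4%) or shNRP1#5 (5.94%), and 0 had an unadjusted p under 0.05 in each. DESeq2 called 0 in each as well. In counts simulated from SUM159PT, 200 genes of any level were changed by 1.5 on the log2 scale in siNRP1#5, the group of 2 libraries. Of these, edgeR called 33%. In the data 3590 genes were called in that comparison, so the simulation does not give the power for the members or the other comparisons. A count of 0 called does not by itself show that the members were unchanged. The protein genes had log2 fold changes of -1.22 to 0.40, -0.46 to 0.37, -0.19 to 0.94 and -0.43 to 0.33 in that order, and the rRNAs of 0.17 to 0.69 over the 4 comparisons.

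In HS578T 0 of 15 were called by edgeR with siNRP1#3 (4.65% of all genes were), siNRP1#5 (18.7%), shNRP1#3 (0.0356%) or shNRP1#5 (0.946%), and 5, 3, 0 and 0 had an unadjusted p under 0.05. DESeq2 called 2 with siNRP1#3 and 0 in the other comparisons, and edgeR called 0 with either siRNA after the RNA of other lines was subtracted. With siNRP1#3 the protein genes had a median log2 fold change of -0.63 and a range of -1.17 to 0.67, with MT-ATP8 (-1.17, edgeR adjusted p = 0.0683) and MT-CO3 (-0.93, edgeR adjusted p = 0.0748) nearest to the threshold. The third siNRP1#3 library had the lowest mitochondrial share of all 52, at 1.80%. With siNRP1#5, whose libraries held the most RNA of another line, MT-ND6 was at 1.19 (edgeR adjusted p = 0.116) and MT-ND3 at -0.83 (edgeR adjusted p = 0.118).

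Whether a knockdown effect differed between the 3 lines was tested for each of the 4 sequences. No member was called, while 3.42% of all genes were with siNRP1#3, 18.2% with siNRP1#5, 0.747% with shNRP1#3 and 3.81% with shNRP1#5, and 1, 1, 0 and 0 members had an unadjusted p under 0.05 by edgeR. The MDA-MB-231 calls are therefore not shown to be particular to that line.

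**Figure D4:**
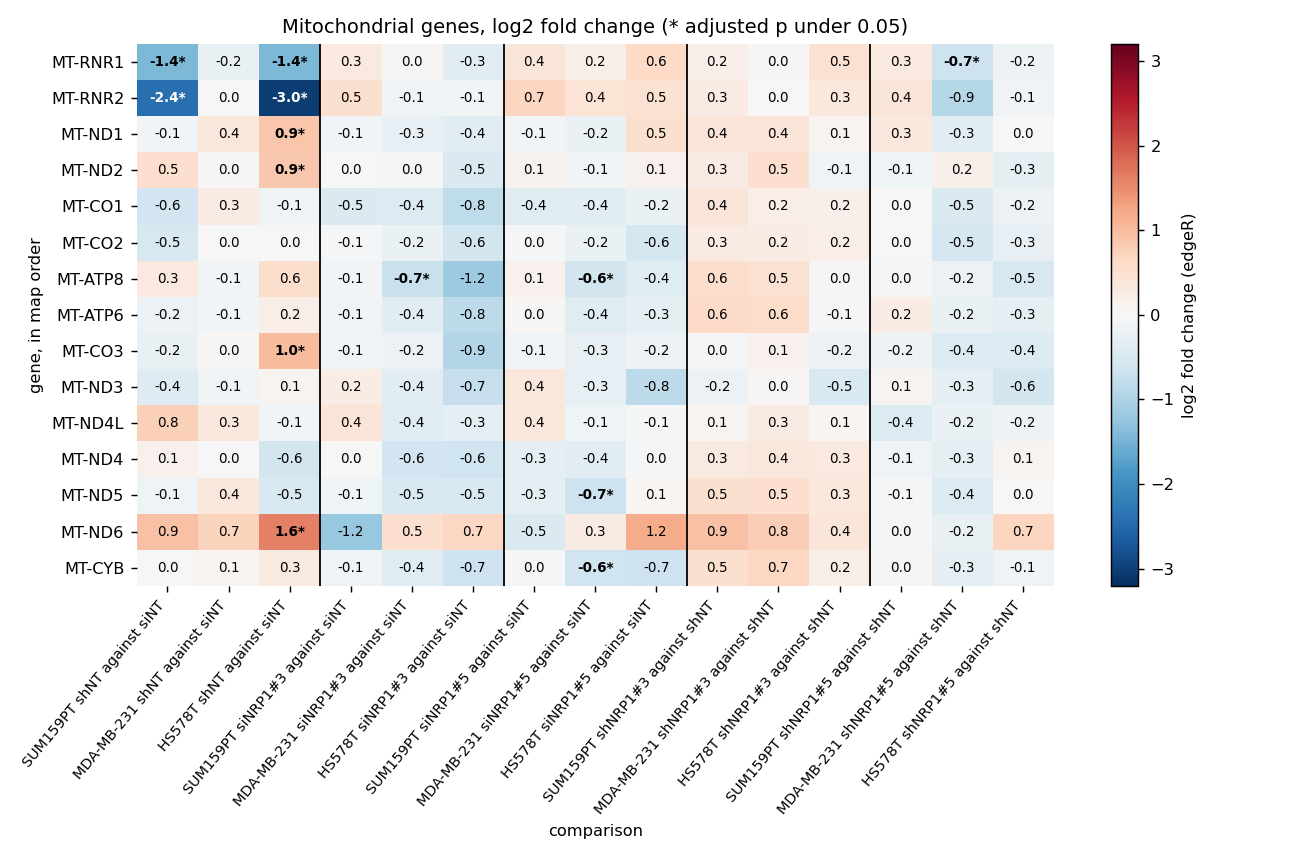
Log2 fold change of each of the 15 measured mitochondrial genes in the 12 knockdown comparisons and in shNT against siNT of each cell line, with colour as the scale and calls at an adjusted p under 0.05 marked. The 5 knockdown calls lie in MDA-MB-231, and the changes largest in size are those of MT-RNR2 in shNT against siNT of HS578T and SUM159PT, at -3.04 and -2.41, followed by MT-ND6 in the same comparison of HS578T, at 1.62.

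Because siNRP1#5 and shNRP1#5 have the same target sequence, their effects were compared within each line. The knockdown itself was unequal. In MDA-MB-231 NRP1 was at -4.88 with siNRP1#5 and -1.05 with shNRP1#5, a difference of -3.83 (edgeR adjusted p = 8.14e-09). There it was also higher in shNT than in siNT (1.23, edgeR adjusted p = 1.68e-05). The difference was -2.01 in SUM159PT (edgeR adjusted p = 0.0315) and -0.57 in HS578T (0.536). Its part in the results below was not tested. In MDA-MB-231 the effect of siNRP1#5 was higher than that of shNRP1#5 for MT-RNR2, by 1.36 on the log2 scale (SE 0.455, edgeR adjusted p = 0.0399), and for MT-RNR1, by 0.85 (SE 0.287, edgeR adjusted p = 0.0391). These were 2 of 15 members, beside 23.7% of all genes called and 12.2% called higher. The rRNA effects themselves were 0.44 and 0.20 with siNRP1#5 and -0.92 and -0.65 with shNRP1#5, for MT-RNR2 and MT-RNR1. Both calls were lost in 8 of the 12 fits that left out 1 library (siNT 1 or 2, siNRP1#5 3, shNT 1 or 2, or any 1 of shNRP1#5). In SUM159PT and HS578T 0 members were called by edgeR (2.51 and 0.854% of all genes were), and 0 had an unadjusted p under 0.05.

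Reads of the protein genes may also fall on nuclear copies of mitochondrial DNA. Of 405 such copies listed, 359 were at 0 in every library and 4 had a mean of 10 counts or more. They were MTATP6P1 (mean 14252 counts, 17.6% of those of MT-ATP6), MTCO1P12 (3022), MTND2P28 (1945) and MTND1P23 (18.6), and the next was MTCO2P12 (6.76). All 5 lie on chromosome 1 between bases 629062 and 634376 of GRCh38 and were 97.0 to 98.6% identical to the mitochondrial genome, and 10.5 to 48.7% of their windows of 75 bases were also found there in full. Reads from these windows cannot be told apart, so the values of MT-ATP6, MT-CO1 and MT-ND2 are uncertain to that extent. All copies together came to 0.402 to 1.99% of the mitochondrial counts. MTCO1P12 was lower in SUM159PT (-2.54, edgeR adjusted p = 5.77e-07) and HS578T (-3.24, edgeR adjusted p = 2.60e-08) than in MDA-MB-231, while MT-CO1 was not called in either of these. Against SUM159PT, HS578T was lower for MTCO1P12 (-0.69, edgeR adjusted p = 0.0370), as for MT-CO1. It was higher for MTATP6P1 (0.64, edgeR adjusted p = 0.0215), as for MT-ATP6. Against MDA-MB-231, MTATP6P1 was not called in HS578T (0.46, edgeR adjusted p = 0.0808), while MT-ATP6 was. MTND2P28 was higher in shNT than in siNT of HS578T (1.75, edgeR adjusted p = 0.00162), as was MT-ND2, and of MDA-MB-231 (0.75, edgeR adjusted p = 0.0316), where MT-ND2 was not called. In HS578T siNRP1#5 MTCO1P12 was higher than in siNT (1.38, edgeR adjusted p = 0.00814), and 0.81 (edgeR adjusted p = 0.125) with the RNA of other lines subtracted.

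The nuclear genes that transcribe, cut, modify and stabilise mitochondrial RNA were counted beside the members, from a list of 43, all of which were tested. With siNRP1#5, SUM159PT had 17 called higher and 0 lower (9% of all genes were called higher), MDA-MB-231 had 12 and 2 (14.4 and 14.9%), and HS578T had 5 and 2 (10.1 and 8.53%). With siNRP1#3 the counts were 0 in HS578T (4.65% of all genes were called in either direction), 1 and 1 in SUM159PT (8.66%; 4 in all with the replicate block), and 2 and 3 in MDA-MB-231 (25.7%). With shNRP1#3 1 was called higher in SUM159PT (1.4%) and 1 in MDA-MB-231 (3.65%), and with shNRP1#5 1 higher and 1 lower in SUM159PT (5.94%) and 6 and 1 in MDA-MB-231 (20.7%), beside 0 with either in HS578T (0.0356 and 0.946%). For shNT against siNT the counts were 5 and 2 in HS578T (17.9%), 7 and 1 in SUM159PT (14.4%), and 1 and 3 in MDA-MB-231 (20.6%).

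HSD17B10, a subunit of the mitochondrial RNase P that frees the 5′ ends of tRNAs, was called higher in 9 of the 12 knockdown comparisons. In MDA-MB-231 it averaged 99.5 ± 0.733 TPM in shNT, 239 ± 8.43 in shNRP1#3 and 295 ± 14.3 in shNRP1#5 (SD, n = 3 each), and 232 ± 19.4 in siNT, 363 ± 20.1 in siNRP1#3 and 315 ± 65.8 in siNRP1#5. In SUM159PT it averaged 58.4 ± 3.11 TPM in shNT, 142 ± 14.9 in shNRP1#3 and 161 ± 5.02 in shNRP1#5. The log2 fold change of HSD17B10 was 1.16 and 1.36 with shNRP1#3 and shNRP1#5 in SUM159PT (edgeR adjusted p = 0.00793 and 0.000950) and 1.25 and 1.63 in MDA-MB-231 (edgeR adjusted p = 9.06e-05 and 2.44e-06). With siNRP1#3 and siNRP1#5 it was 0.69 and 1.01 in SUM159PT and 0.69 and 0.68 in MDA-MB-231 (edgeR adjusted p = 0.00213 to 0.0460). In HS578T siNRP1#5 was called (0.98, edgeR adjusted p = 0.0161, and 0.93, 0.0324, with the RNA of other lines subtracted) and the other 3 were not (0.73 to 0.91, edgeR adjusted p = 0.114 to 0.402). Its level in shNT was also below siNT in SUM159PT (-0.91, edgeR adjusted p = 0.0118) and MDA-MB-231 (-1.40, edgeR adjusted p = 8.00e-06), and was 0.10 from it in HS578T (edgeR adjusted p = 0.816), a difference between lines that passed its own test (edgeR adjusted p = 0.00268).

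SLIRP, which with LRPPRC holds mitochondrial mRNAs stable, was called higher with siNRP1#5 in all 3 lines, at 0.82 in HS578T, 1.73 in SUM159PT and 0.81 in MDA-MB-231 (edgeR adjusted p = 0.0454, 0.00166 and 0.00421). In MDA-MB-231 SLIRP stood at 457, 415 and 198 TPM in siNRP1#5 and at 262, 240 and 209 TPM in siNT. There siNRP1#5 replicate 3 lay below every siNT library, while in HS578T and SUM159PT (2 siNRP1#5 libraries) all lay above. The mitochondrial transcription factors TFAM and TFB2M, the RNA polymerase POLRMT and the poly(A) polymerase MTPAP were each called higher with siNRP1#5 in 2 lines. TFAM was at 1.26 in SUM159PT and 1.47 in HS578T, TFB2M at 1.48 in SUM159PT and 0.54 in MDA-MB-231, POLRMT at 1.21 in SUM159PT and 0.39 in MDA-MB-231, and MTPAP at 0.98 in SUM159PT and 1.20 in HS578T. With the RNA of other lines subtracted in HS578T, SLIRP was at 1.09 (edgeR adjusted p = 0.0160) and TFAM at 1.55 (edgeR adjusted p = 0.00704), while MTPAP, at 0.95, no longer passed (edgeR adjusted p = 0.0523). In SUM159PT, where 17 of these 43 genes were called higher with siNRP1#5, 0 of the 15 mitochondrial genes were called, which does not show them unchanged.

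For shNT against siNT, MGME1, an exonuclease of mitochondrial DNA upkeep, was called higher in all 3 lines (0.66, 0.49 and 0.77, edgeR adjusted p = 0.0335, 0.0400 and 0.0256). FASTKD5, needed for cutting precursors that no tRNA flanks, MRM2, which methylates the 16S rRNA, and MTERF4, which acts in assembly of the large ribosomal subunit, were called higher in SUM159PT and HS578T. They were at 0.89 and 1.04 (FASTKD5), 0.97 and 0.79 (MRM2) and 0.61 and 1.15 (MTERF4), beside 0.12, 0.21 and 0.35 in MDA-MB-231, and none of the 3 was shown to differ between lines (edgeR adjusted p = 0.101, 0.162 and 0.0568). POLG, the mitochondrial DNA polymerase, was lower in HS578T (-1.41, edgeR adjusted p = 0.000849). After the subtraction MGME1 and MRM2 no longer passed in HS578T (edgeR adjusted p = 0.0554 and 0.0846). Whether these changes bear on the rRNAs was not tested.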

How the data were processed

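Poly(A)-enriched, stranded RNA of 52 samples was sequenced as paired reads. Per the methods and the submitters' processing notes, the authors trimmed reads with Trim Galore 0.6.5 (keeping reads of 75 bases or more), aligned them to GRCh38 with STAR 2.7.2b, counted them with RSEM 1.3.3 using strand, and removed 2 outlier samples. The deposited gene tables hold the authors' expected counts, in which RSEM divides reads that match several genes, and the authors' TPM, which corrects for length. The transcript tables were not used. Reads shared with nuclear copies are thus divided by estimate.

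Expected counts were rounded and tested with edgeR 4.0.16 in R 4.3.3 (filterByExpr, TMM, robust quasi-likelihood F test, Benjamini-Hochberg over all genes tested, threshold 0.05). Each cell line was fitted with its 6 groups (SUM159PT 20067 genes, MDA-MB-231 18800, HS578T 19661), the NT controls of the 3 lines together (20686) and all 52 samples (23416). The SE is the log2 fold change divided by the root of F. All 15 protein and rRNA genes are named, tRNAs with a mean of 10 counts in a group, the 5 nuclear copies with most counts, and nuclear factors called alike in several lines or largest in a comparison. The members and lists were chosen with earlier results of these data known. Markers of another line had at most 0.5 CPM in a line's own NT controls and at least 20 in the other's. Sequences and coordinates came from an earlier GENCODE release on GRCh38, in which all 37 versioned identifiers are the same. The scripts were tested on simulated counts. Figures were drawn with matplotlib 3.10.9 in Python 3.11.15.

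Replicate numbers paired the samples, by correlated deviations over 0.1 in all 3 pairs, in 6 of 15 comparisons (lowest pair r 0.192 to 0.603): siNRP1#3 and shNRP1#3 in SUM159PT, siNRP1#5, shNRP1#3 and shNT against siNT in MDA-MB-231, and HS578T shNRP1#5. No 2 replicates agreed within sampling noise (lowest chi-square per degree of freedom 10.0). Alternatives were no filter, DESeq2 1.42.0, library size alone, scaling without mitochondrial genes, the replicate block, only the 2 groups in the fit, subtraction of other lines' RNA, limma 3.58.1 on log2(TPM + 0.1), leaving out each sample and, chosen after the data were seen, siNT or shNT alone for the line contrasts and the subtraction for nuclear factors and copies. No column was left without a sample. The intervals for counts of 0 take 3 counts and cover counting error only.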

Additional observations from a re-analysis of the deposited data

Results flagged for a closer look

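The effect of shNT against siNT on MT-RNR2 differed between the 3 cell lines by a test of the difference itself (edgeR F test, adjusted p = 0.00124). The log2 fold change was -2.41 in SUM159PT, -3.04 in HS578T and 0.02 in MDA-MB-231. The adjusted p was 0.00166 with the replicate block and 0.00174 after subtraction of RNA of other lines. It was 0.104, 0.0628 and 0.000299 without replicates 1, 2 and 3.

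In MDA-MB-231 the effects of siNRP1#5 and shNRP1#5, which share a target sequence, differed for MT-RNR2 (edgeR adjusted p = 0.0399) and MT-RNR1 (edgeR adjusted p = 0.0391). Leaving out 1 library at a time gave differences of 0.99 to 1.87 and of 0.54 to 1.13 on the log2 scale, and 8 of the 12 fits no longer passed for either gene. NRP1 itself was at -4.88 with siNRP1#5 and -1.05 with shNRP1#5, so the depth of knockdown also differed.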

How the results depend on the processing

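Leaving out each sample kept 256 of 330 gene values past the threshold, and none turned. The cause of other shifts was not tested. The knockdown calls ran over 0 to 10 in all (0 to 4 for siNRP1#3 and for siNRP1#5 in MDA-MB-231, 0 to 1 for shNRP1#5 there and for siNRP1#3 in HS578T, otherwise 0). Calls for shNT against siNT ran over 1 to 2 in SUM159PT, 0 to 1 in MDA-MB-231 and 1 to 7 in HS578T (lowest sum 2), those between lines over 3 to 6, 5 to 8 and 7 to 9, the difference of shNT against siNT between lines over 0 to 2, and the siNRP1#5 and shNRP1#5 difference in MDA-MB-231 over 0 to 2.

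For the alternatives of this section, leaving out samples included, the share of all genes called was not counted. A rise or fall in their counts is thus not read as particular to the mitochondrial genes. Without the filter on low counts (38858 to 40604 genes per line), knockdown calls rose to 35: 1 for siNRP1#3 in SUM159PT, 8, 7, 6 and 7 for siNRP1#3, siNRP1#5, shNRP1#3 and shNRP1#5 in MDA-MB-231, and 4 and 2 for siNRP1#3 and siNRP1#5 in HS578T. shNT against siNT then gave 4 in SUM159PT and 2 in MDA-MB-231, the lines gave 29 (11 between SUM159PT and MDA-MB-231), and tests between lines 8 (2, 2 and 1 for siNRP1#3, siNRP1#5 and shNRP1#5, 3 for shNT). DESeq2 gave 8 knockdown calls, with 1 for shNRP1#3 in MDA-MB-231 and 2 for siNRP1#3 in HS578T. The replicate block also gave 8, with 2 for shNRP1#5 in MDA-MB-231 and 1 each for siNRP1#3 and siNRP1#5 in HS578T, and of 34 gene calls it lost 1. In the 6 comparisons whose numbers pair the samples, it moved no count of mitochondrial calls by over 1.5 times, and elsewhere the samples share only a number. Only 2 groups in the fit gave 13: 0, 2 and 8 for siNRP1#5, shNRP1#3 and shNRP1#5 in MDA-MB-231 and 2 for siNRP1#5 in HS578T, and 1 for shNT against siNT in MDA-MB-231. On log2(TPM + 0.1) limma gave 2 for shNRP1#5 in MDA-MB-231. Subtracting RNA of other lines left 3 shNT against siNT calls in HS578T, 5 in all. Scaling by library size alone lost 5 of 32 gene calls and moved the median of all genes by -0.21 to 0.13 in comparisons within a line, and scaling without mitochondrial genes lost 0. From shNT alone the lines gave 8 calls (1 between SUM159PT and MDA-MB-231, 3 between HS578T and SUM159PT), and MT-RNR2 reversed to -0.11 and -0.39.

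The log2 ratio of mitochondrial shares for shNT against siNT in HS578T, -0.63, turned to 0.19 for protein genes over counts without mitochondrial rRNA, and was -0.21 in TPM. In SUM159PT it went from -0.68 to -0.20 and -0.29. Protein genes alone gave -0.0498 and -0.33 for siNRP1#3 and siNRP1#5 in SUM159PT, -0.26 for siNRP1#5 in HS578T and -0.30 for HS578T against MDA-MB-231. In TPM, siNRP1#5 in HS578T gave -0.12, SUM159PT and HS578T against MDA-MB-231 -0.13 and -0.29. Leaving out a sample, the log2 ratio of shares ran over 0.02 to 0.32 (SUM159PT siNRP1#3 against siNT), -0.10 to 0.09 (SUM159PT siNRP1#5 against siNT), 0.19 to 0.68 (SUM159PT shNRP1#3 against shNT), -0.07 to 0.44 (SUM159PT shNRP1#5 against shNT), -0.48 to 0.06 (MDA-MB-231 siNRP1#3 against siNT), -0.51 to 0.03 (MDA-MB-231 siNRP1#5 against siNT), 0.22 to 0.45 (MDA-MB-231 shNRP1#3 against shNT), -0.51 to -0.27 (MDA-MB-231 shNRP1#5 against shNT), -0.53 to -0.00 (HS578T siNRP1#3 against siNT), -0.04 to 0.23 (HS578T siNRP1#5 against siNT), 0.07 to 0.28 (HS578T shNRP1#3 against shNT), -0.21 to 0.02 (HS578T shNRP1#5 against shNT), -0.98 to -0.49 (SUM159PT shNT against siNT), -0.06 to 0.49 (MDA-MB-231 shNT against siNT), -0.69 to -0.54 (HS578T shNT against siNT), 0.19 to 0.45 (SUM159PT against MDA-MB-231), -0.01 to 0.24 (HS578T against MDA-MB-231) and -0.29 to -0.10 (HS578T against SUM159PT).

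Nuclear factors called by DESeq2 were 4 and 9 for siNRP1#3 in SUM159PT and MDA-MB-231, 11 for shNRP1#5 and 7 for shNT against siNT in MDA-MB-231, and 1, 13 and 3 for siNRP1#3, siNRP1#5 and shNRP1#5 in HS578T. The block gave 4 for siNRP1#3 and 13 for shNT against siNT in SUM159PT. Leaving out samples was not run for these. Subtracting RNA of other lines, added after the data were seen, moved no count of these by over 1.5 times. Depth limits MT-ND6, with 43 to 3559 counts.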
